A study of Homo sapiens with 16 samples.

Results

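Integrins are the cell surface receptors for extracellular matrix, and each receptor pairs an alpha with a beta subunit. The genes described here were 10 integrin subunits, ITGA1, ITGA2, ITGA3, ITGA5, ITGA6, ITGAV, ITGB1, ITGB3, ITGB4 and ITGB5, taken by name from the 26258 genes of a table of CPM values, which are read counts scaled to the total of the library. They were chosen by the rise of ITGA3 in Sorafenib-resistant cells and by membership of the same receptor family, so their values in resistant against parental cells are given as a description, without a test. The annotation held 26 human integrin genes, and the other 16 were used for comparison. All 10 genes passed the filter on low values, a level of at least 1 CPM in at least 2 libraries.

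The libraries came from Huh7 and Hep3B, established human hepatocellular carcinoma (HCC) cell lines. Sorafenib is a multi-kinase inhibitor given in advanced HCC. In each line, parental cells, DMSO cells, Sorafenib-resistant IR cells and Sorafenib-resistant CR cells were sequenced, giving 8 groups of 2 libraries, 16 in all. IR cells had been selected with rising Sorafenib doses and CR cells had been held at a high dose throughout, and both are labelled as treated with 7 µM Sorafenib. Parental and DMSO cells are both labelled as untreated, DMSO being the solvent of the drug, and the labels say no more about the DMSO cells. Each resistant group was a single derived line and, since both resistant groups carry the label of drug treatment and the parental cells do not, resistance and drug exposure cannot be told apart. The labels do not say whether the libraries of a group came from separate cultures. The study's methods speak of RNA from biological triplicates, whereas 2 libraries per group were analysed here, so that the p-values below measure only the spread between these libraries.

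Integrins hold cells to laminin, collagen, fibronectin and vitronectin, and signal through talin, kindlins, focal adhesion kinase and Src. ITGA3 and ITGA6 pair with ITGB1 to bind laminin, and ITGA6 also pairs with ITGB4 in hemidesmosomes. ITGA1 and ITGA2 with ITGB1 bind collagen, ITGA5 with ITGB1 binds fibronectin, and ITGAV pairs with ITGB1, ITGB3 or ITGB5 to bind ligands such as vitronectin. In normal liver, hepatocytes are known for ITGA1 and ITGA5, whereas ITGA2, ITGA3, ITGA6 and ITGB4 are typical of bile duct epithelium.

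ITGA3, ITGB3 and ITGB4, the members with the largest differences, lie on chromosome 17 (GRCh37, ITGA3 at chr17:48133332-48167845, ITGB3 at chr17:45331193-45391109, ITGB4 at chr17:73717408-73753899, all on the plus strand). ITGA1 (chr5:52083750-52255039) and ITGA2 (chr5:52285170-52390609) are neighbours on the plus strand of chromosome 5, 30.1 kb apart in this annotation. Their upstream sequences are shown because the neighbouring collagen receptor genes differed in opposite directions in Hep3B cells as described further on, and that of ITGA6 because it was the single gene of the 7 members with a RefSeq promoter entry whose windows held the core letters of the hypoxia response element. Each line gives the 250 bases before an annotated RefSeq transcription start (GRCh38.p14, a later build than that of the read counts), 5′ to 3′ on the gene's strand, with the searched letters in capitals.
ITGA1, chr5:52787666-52787915: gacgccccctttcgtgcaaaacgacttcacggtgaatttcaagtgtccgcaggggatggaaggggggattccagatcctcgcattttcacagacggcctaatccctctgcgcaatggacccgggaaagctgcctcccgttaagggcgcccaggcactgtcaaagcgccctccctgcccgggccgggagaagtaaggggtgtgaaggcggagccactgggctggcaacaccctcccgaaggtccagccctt
ITGA2, chr5:52989102-52989351: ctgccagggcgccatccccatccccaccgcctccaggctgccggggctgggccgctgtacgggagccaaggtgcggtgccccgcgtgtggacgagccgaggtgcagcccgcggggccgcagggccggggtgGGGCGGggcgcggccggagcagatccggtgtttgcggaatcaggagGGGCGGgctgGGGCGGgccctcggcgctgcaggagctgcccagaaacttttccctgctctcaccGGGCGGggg
ITGA6, chr2:172427086-172427335: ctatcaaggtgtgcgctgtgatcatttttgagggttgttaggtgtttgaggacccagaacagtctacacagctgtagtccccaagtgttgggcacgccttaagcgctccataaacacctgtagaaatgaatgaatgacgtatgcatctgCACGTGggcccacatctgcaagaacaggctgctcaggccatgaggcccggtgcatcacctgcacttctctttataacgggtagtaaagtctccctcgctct

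Searched on both strands were GGGCGG (the GC box), ACGTG (the core of the hypoxia response element), TGANTCA (AP-1) and GGAATG (TEAD). The ITGA1 window held none of them, the ITGA2 window held 4 GC boxes, and the ITGA6 window held a CACGTG palindrome, read as ACGTG on both strands. A second ITGA6 window, from another RefSeq start (chr2:172427336-172427585, letters not shown), held 3 GC boxes and 1 ACGTG core. Among 35116 promoter windows of the same length, 42.6% held a GC box, 18.5% the ACGTG core, 6.57% the AP-1 letters and 11.9% the TEAD letters. These matches describe the letters in the windows and were not tested against the expression values.

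Library totals ranged from 46613302 to 76860251 reads, recovered from the CPM steps. The hepatocyte identity of the lines was checked with 10 hepatocyte genes, including ALB, AFP and HNF4A. Their summed level was 10710 to 16251 CPM in Huh7 parental and 17152 to 21248 CPM in Hep3B parental cells. It was lower in resistant Huh7 cells, at 124 to 492 CPM in IR and 1380 to 2810 CPM in CR, and in resistant Hep3B cells, at 3587 to 10347 CPM in IR and 1325 to 2157 CPM in CR. The sum was higher in the DMSO cells of both lines, at 22683 to 27762 CPM in Huh7 and 30256 to 36145 CPM in Hep3B. The 8 fibroblast genes summed to 391.8 to 526 CPM in Huh7 parental, 315 to 341 CPM in Huh7-IR and 505 to 789 CPM in Huh7-CR libraries, and to between 54.35 and 103 CPM in all Hep3B libraries. Within that list the leading gene in Huh7 was LUM in parental cells (277 and 329 CPM) and COL1A2 in resistant cells (202 to 405 CPM, against 4.38 and 5.16 CPM in parental cells), while THY1 was at 0 in all 3 of these Huh7 groups. The 5 endothelial markers summed to at most 6.36 CPM in any library and the 5 leukocyte markers, led by CD68 or LYZ, to 10.8 to 113 CPM. The part of these other cell type markers in the integrin values was not tested, and in bulk RNA fewer cells of a type and less RNA per cell cannot be told apart.

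Where 4 values are given together, they stand for Huh7 cells, IR then CR, and for Hep3B cells, IR then CR. Among the laminin receptor subunits, ITGA3 was barely detected before selection, and in the resistant cells it ranked, per length, from first of the 10 members in Huh7-IR to 8 of 10 in Huh7-CR, the rank it also had in Huh7 parental cells. In Huh7 cells, ITGA3 measured 1.21 and 0.62 CPM in the parental libraries (83 and 46 reads), 0.91 and 2.92 CPM with DMSO, 702 and 611 CPM in IR, and 101 and 82.3 CPM in CR. In Hep3B cells it measured 1.29 and 0.76 CPM in the parental libraries (96 and 54 reads), 2.55 and 1.96 CPM with DMSO, 189.9 and 111 CPM in IR, and 486 and 521 CPM in CR. Every resistant library lay above every parental and DMSO library of both lines. The order of the group means was Huh7-IR, Hep3B-CR, Hep3B-IR, Huh7-CR, followed by the 4 parental and DMSO groups, in which each neighbouring pair overlapped in its values. On the scale of raw CPM, resistant means were 720 and 101 times the parental mean in Huh7, and 146 and 491 times in Hep3B. Leaving out any single library kept the log2 difference of CPM + 1 from parental cells between 8.22 and 8.67 in Huh7-IR, and between 5.39 and 5.84 in Huh7-CR. In Hep3B it ranged from 5.80 to 6.57 for IR and from 7.78 to 8.16 for CR. A larger or smaller added constant moved these differences further, to between 7.07 and 9.31 in Huh7-IR over all alternatives, since the parental level was so low.

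ITGB4, the hemidesmosomal partner of ITGA6, was also higher in all resistant groups. In Huh7 cells, ITGB4 measured 0.42 and 0.29 CPM in parental, 0.59 and 2.51 CPM with DMSO, 17.8 and 17.2 CPM in IR, and 17.4 and 22.8 CPM in CR libraries. In Hep3B cells it measured 19.3 and 10.3 CPM in parental, 9.33 and 14.2 CPM with DMSO, 119 and 63.6 CPM in IR, and 109 and 101 CPM in CR libraries. The resistant Huh7 cells therefore overlapped the level that Hep3B cells had without selection. The differences from parental cells were 3.77, 3.95, 2.54 and 2.81 as log2 of CPM + 1 (SE 0.39).

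The other laminin receptor subunit, ITGA6, was higher in all resistant groups by smaller amounts, with its largest difference in Huh7-CR. ITGA6 measured 141 and 183 CPM in Huh7 parental, 182 and 154 CPM with DMSO, 203 and 239 CPM in IR, and 341 and 304 CPM in CR libraries. In Hep3B cells, the ITGA6 values were 207 and 200.2 CPM in parental, 194 and 187 CPM with DMSO, 285 and 273 CPM in IR, and 326 and 270.4 CPM in CR libraries. All 8 resistant libraries lay above the parental libraries of their line, by log2 differences of 0.45, 1.00, 0.45 and 0.54 (SE 0.15).

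**Figure D1:**
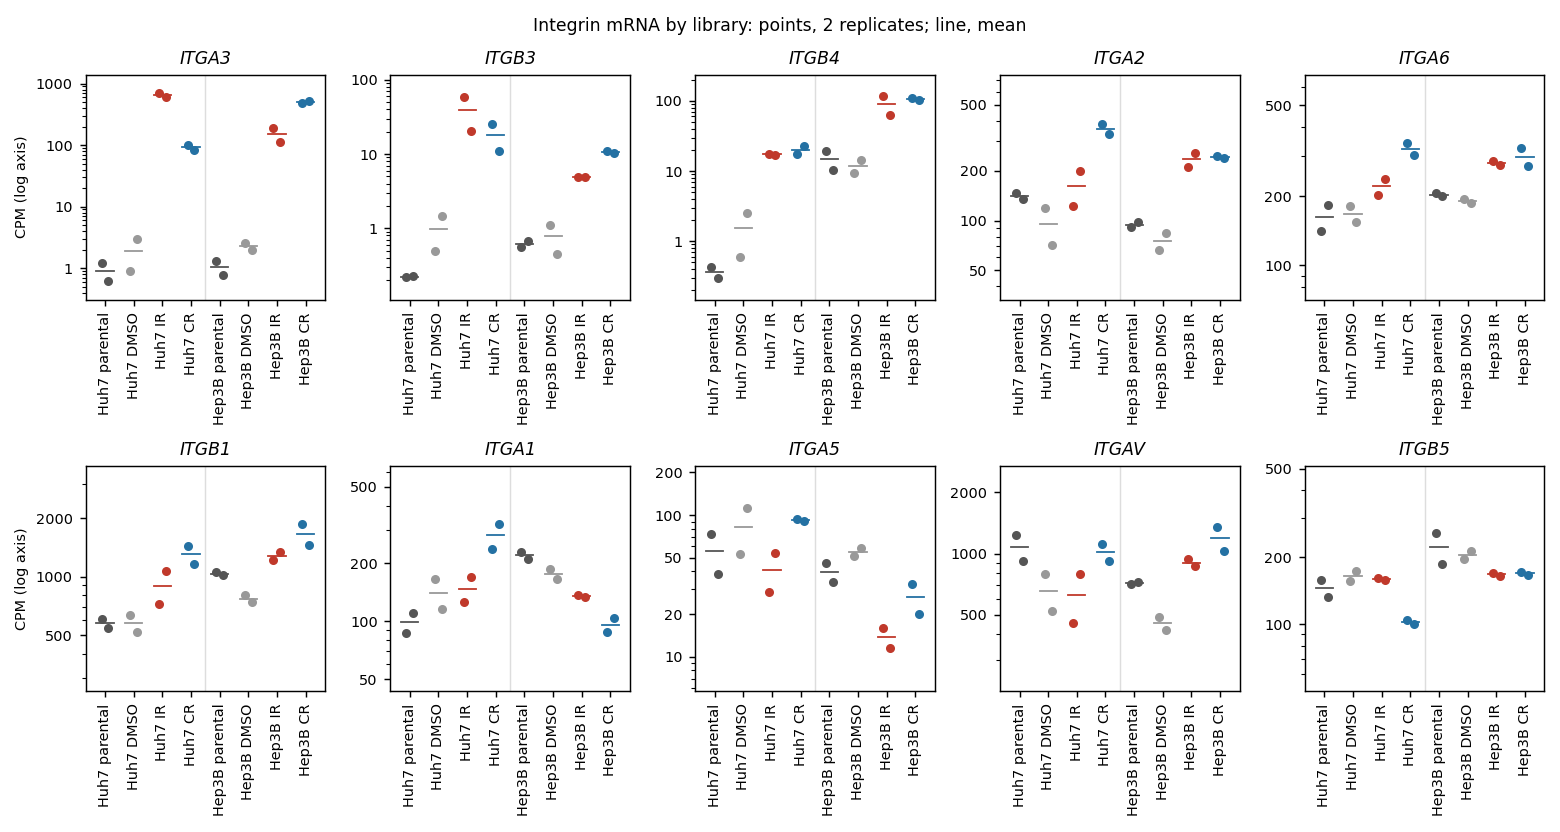
Level of each of the 10 integrin subunits in CPM (vertical log axis, with its own range in each panel) in the 8 groups (horizontal axis); points are the 2 libraries of a group and the line is their mean. ITGA3 lies at or below 2.92 CPM in all parental and DMSO libraries and at or above 82.3 CPM in all resistant libraries, and ITGA1 lies above the parental values in resistant Huh7 cells and below them in resistant Hep3B cells.

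The collagen receptor subunits ITGA1 and ITGA2 went apart in Hep3B cells. ITGA2 measured 91.6 and 97.6 CPM in Hep3B parental, 66.7 and 84.1 CPM with DMSO, 210.3 and 257 CPM in IR, and 247 and 239 CPM in CR libraries. ITGA1 measured 229 and 212 CPM in Hep3B parental, 187 and 166 CPM with DMSO, 137 and 133 CPM in IR, and 88.2 and 104 CPM in CR libraries. All resistant Hep3B libraries were thus above both parental libraries for ITGA2 and below them for ITGA1. The log2 differences were 1.29 and 1.35 (SE 0.25) for ITGA2, and -0.70 and -1.19 (SE 0.21) for ITGA1, in IR and CR cells.

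In Huh7 cells both collagen receptor subunits were higher in CR cells. ITGA1 measured 86.9 and 111 CPM in Huh7 parental, 166 and 116 CPM with DMSO, 126 and 169.6 CPM in IR, and 238 and 322 CPM in CR libraries. ITGA2 measured 146 and 135 CPM in Huh7 parental, 119.8 and 71.4 CPM with DMSO, 123 and 200.2 CPM in IR, and 380.2 and 333 CPM in CR libraries. The ITGA1 values of IR cells overlapped those of the DMSO cells, and the ITGA2 values of IR cells overlapped those of the parental cells. The log2 differences from parental cells were 0.57 and 1.49 (SE 0.21) for ITGA1, and 0.16 and 1.34 (SE 0.25) for ITGA2, in IR and CR cells, and with single libraries left out the ITGA2 value of IR cells ran from -0.19 to 0.51.

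ITGA5, the fibronectin receptor subunit, was the only member at its lowest in Hep3B-IR cells. It measured 45.6 and 33.9 CPM in Hep3B parental, 51.3 and 58.9 CPM with DMSO, 15.98 and 11.5 CPM in IR, and 32.8 and 19.99 CPM in CR libraries. In Huh7 cells, ITGA5 measured 72.9 and 38.7 CPM in parental, 53.2 and 111 CPM with DMSO, 28.7 and 53.7 CPM in IR, and 93.1 and 90.3 CPM in CR libraries. The parental Huh7 libraries differed from each other by more than did the group means of parental and IR cells. Its log2 differences were -0.42, 0.78, -1.47 and -0.60 (SE 0.40), and the first was at most 0.02 and at least -0.87 with single libraries left out.

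ITGAV, the alpha subunit with the widest choice of beta partners, was the most abundant alpha subunit per length in the parental cells. In Huh7 cells, ITGAV measured 1229.7 and 916 CPM in parental, 789.9 and 522 CPM with DMSO, 455 and 795 CPM in IR, and 1116 and 916 CPM in CR libraries. In Hep3B cells, the ITGAV values were 705 and 721 CPM in parental, 489 and 422 CPM with DMSO, 939 and 865 CPM in IR, and 1353 and 1027 CPM in CR libraries. ITGAV was below the parental values in Huh7-IR and above them in both resistant Hep3B groups, and it was also below them in the DMSO cells of both lines. Its log2 difference from parental cells in Huh7-IR was -0.82 (SE 0.27), which became -0.09 when the DMSO libraries served as the reference. In Huh7-CR it was -0.07, -0.28 to 0.14 with single libraries left out, and as high as 0.65 over all alternatives.

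Its partner ITGB3 was close to absent before selection. ITGB3 measured 0.22 and 0.23 CPM in Huh7 parental (15 and 17 reads), 0.50 and 1.48 CPM with DMSO, 59.2 and 20.6 CPM in IR, and 25.2 and 10.98 CPM in CR libraries. In Hep3B cells, ITGB3 values were 0.57 and 0.68 CPM in parental (42 and 48 reads), 1.11 and 0.45 CPM with DMSO, 4.88 and 4.96 CPM in IR, and 10.9 and 10.3 CPM in CR libraries. Every resistant library lay above every parental and DMSO one, although the replicates of Huh7-IR and of Huh7-CR were far apart. The log2 differences were 4.88, 3.86, 1.87 and 2.84 (SE 0.44), again set in part by the added 1 CPM.

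ITGB5, another partner of ITGAV, went the other way in 3 of the 4 resistant groups. ITGB5 measured 159 and 133 CPM in Huh7 parental, 157 and 174 CPM with DMSO, 162 and 158 CPM in IR, and 104 and 100.3 CPM in CR libraries. In Hep3B cells it measured 257 and 186 CPM in parental, 196 and 213 CPM with DMSO, 170.4 and 165 CPM in IR, and 172 and 166 CPM in CR libraries. The log2 differences were -0.50 in Huh7-CR and -0.38 and -0.37 in Hep3B (SE 0.15). In Huh7-IR the value was 0.14 and turned to -0.06 with factors from the trimmed mean of M-values (TMM), a scaling that also moved the median of all genes tested there from 0.19 to 0.04.

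ITGB1, the common beta subunit of the laminin, collagen and fibronectin receptors, was the most abundant beta subunit per length in every group. ITGB1 measured 604 and 544 CPM in Huh7 parental, 637 and 516 CPM with DMSO, 724 and 1071 CPM in IR, and 1446 and 1158 CPM in CR libraries. In Hep3B cells, ITGB1 values were 1051 and 1024 CPM in parental, 802 and 738 CPM with DMSO, 1217 and 1334 CPM in IR, and 1861 and 1453 CPM in CR libraries. Resistant libraries were above the parental libraries of their line in all 4 groups, by log2 differences of 0.62, 1.17, 0.30 and 0.66 (SE 0.20).

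**Figure D2:**
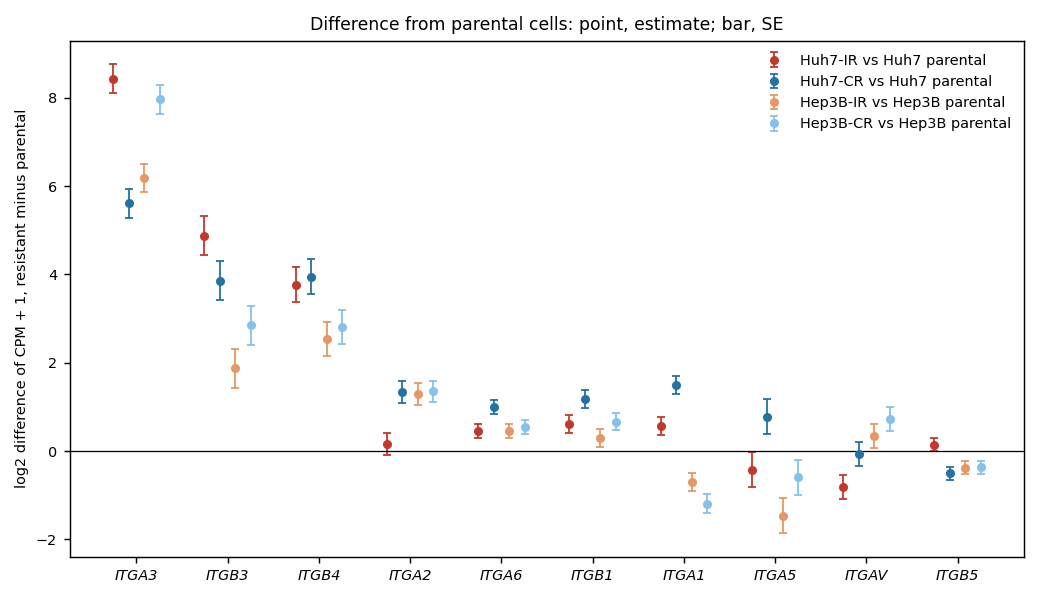
Difference of each integrin subunit between resistant and parental cells (vertical axis, log2 of CPM + 1), with the standard error from the limma fit as bars and 1 colour per resistant group. ITGA3 has the largest value in each group (5.61 to 8.44), and ITGA1 is the member that lies above 0 in both Huh7 groups and below 0 in both Hep3B groups.

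Calling a gene changed at an adjusted p below 0.05 (limma, Benjamini-Hochberg over 15019 genes) with a log2 difference of at least 0.58 in size, 4 members were higher and 1 was lower in Huh7-IR, against 31.1% of all genes higher and 17.8% lower. In Huh7-CR, 7 members were higher and 0 lower (20.9% and 13.6% of all genes). For Hep3B, 4 were higher and 2 lower in IR (15.7% and 11.4%), and 6 were higher and 1 lower in CR (20.0% and 12.3%). These contrasts chose the members, and nothing is read from the counts. With TMM factors the counts became 3 and 1, 7 and 1, 4 and 2, and 4 and 1, and the share of called genes that were higher in Huh7-IR moved from 63.6% to 52.8%. The median log2 difference of the members was 0.51, 1.25, 0.40 and 0.69, beside 0.19, 0.07, 0.06 and 0.11 for all genes tested.

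The solvent comparison, DMSO against parental cells, asked how far the subunits varied between cells labelled as untreated. By limma, 0 of 10 members were called in Huh7 cells (4.83% of all genes) and 0 in Hep3B cells (1.58%). At an unadjusted p below 0.05, limma counted 3 in Huh7 (ITGA1, ITGA2 and ITGAV) and 1 in Hep3B (ITGAV). With the size threshold kept, these became 2 members among 2171 of 15019 genes in Huh7, and 1 among 1210 in Hep3B. By edgeR 0 members were called in both lines, beside 568 genes higher and 244 lower in Huh7 and 77 genes in Hep3B. DESeq2 called 2 members in Huh7 (ITGB3 and ITGB4), beside 1833 genes, and 0 in Hep3B, beside 544 genes. For ITGA3 the log2 difference was 0.53 in Huh7 (95% interval -0.17 to 1.24) and 0.69 in Hep3B (95% interval -0.02 to 1.40). Huh7 DMSO replicate 2 stood apart for several members, with ITGA3, ITGB3 and ITGB4 at 2.92, 1.48 and 2.51 CPM against 0.91, 0.50 and 0.59 CPM in replicate 1. Without Huh7 DMSO replicate 1, 4 members were called, ITGA2 and ITGAV lower and ITGA3 and ITGB4 higher (adjusted p = 0.0143, 0.0266, 0.0269 and 0.0249 by limma), beside 23.7% of all genes.

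The comparison of IR with CR cells asked whether the derived lines of the 2 routes of selection differed in their subunits, a difference that the choice of members did not use directly. Each route gave a single derived line per cell line, so route and derived line cannot be told apart. ITGA3 was chosen by its rise in these same resistant libraries, so its test here is not independent of that choice. In Huh7 cells, 4 of 10 members were called (13.7% of all genes): ITGA3 and ITGB5 were higher, and ITGA1 and ITGA2 lower, in IR than in CR cells. ITGA3 was 7.16 times as high in Huh7-IR as in Huh7-CR cells (means 656.7 ± 64.2 and 91.8 ± 13.4 CPM, SD, n = 2 each). The log2 difference was 2.83 (95% interval 2.12 to 3.54, limma adjusted p = 0.000325), and it stayed between 2.68 and 2.98 and called in all 12 alternative settings. For ITGA1 the log2 difference was -0.92 (limma adjusted p = 0.0139), for ITGA2 -1.18 (adjusted p = 0.0104) and for ITGB5 0.64 (adjusted p = 0.0152).

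These 3 smaller differences depended on single libraries. The ITGA1 call was lost without Huh7-IR replicate 1 or Huh7-CR replicate 2 (limma adjusted p = 0.0728 and 0.129). The ITGA2 call was lost without Huh7-IR replicate 1 (adjusted p = 0.0561), Huh7-CR replicate 1 (0.0673) or Huh7-CR replicate 2 (0.0528), and the ITGB5 call without Huh7-CR replicate 1 (0.0636) or 2 (0.1). Without Huh7-IR replicate 2, in contrast, 9 members were called, all but ITGB4, beside 19.2% of all genes. ITGB5 also fell short of the size threshold with edgeR, DESeq2 and TMM factors (0.54, 0.52 and 0.54). Under TMM factors, the share of called genes that were higher in Huh7-IR than in Huh7-CR moved from 60.3% to 46.8%. Within Huh7-IR, the library with the lower hepatocyte sum, replicate 1 at 124 CPM, had the lower ITGA2, ITGAV and ITGB1 and the higher ITGB3 level, and the part of this in the result was not tested.

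In Hep3B cells, ITGA3 was the only member called between IR and CR cells (11.7% of all genes called), and it ran in the opposite direction. Its mean was 150.2 ± 56.1 CPM in IR and 503 ± 25.04 CPM in CR cells (SD, n = 2 each), a log2 difference of -1.79 (95% interval -2.50 to -1.08, limma adjusted p = 0.0041). Without Hep3B-IR replicate 2 the difference was -1.40 and the call was lost (limma adjusted p = 0.0572). Hep3B-IR replicate 1, with 189.9 CPM of ITGA3, had 1682 CPM of the hepatocyte gene ALB, and replicate 2, with 111 CPM, had 5526 CPM. For the other 9 members the intervals of the difference included changes of up to 1.94 in size, so that the comparison did not show them to be alike.

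ITGA3 thus ranked IR above CR in Huh7 and CR above IR in Hep3B cells. The difference between these differences, Huh7 minus Hep3B, was 4.62 on the log2 scale (95% interval 3.62 to 5.62), and it lay between 4.23 and 5.01 in 15 alternatives. This comparison was added because the order of ITGA3 had been seen, so its value for ITGA3 is a description. By limma, 5 of 10 members were called in it, ITGA3 included, beside 25.5% of all genes, 62.4% of them positive (49.9% with TMM factors). The other members were ITGA1 (-1.41, adjusted p = 0.00589), ITGA2 (-1.11, adjusted p = 0.0352), ITGB3 (2.00, adjusted p = 0.0352) and ITGB5 (0.65, adjusted p = 0.0387). ITGA1 remained called in all 15 alternatives. ITGA2 and ITGB3 each lost the call when any 1 of 6 libraries was left out (adjusted p up to 0.125 and 0.143), and ITGB5 lost it without any 1 of the 8 (0.0502 to 0.11). For ITGA2 these were all but Huh7-IR replicate 2 and Hep3B-IR replicate 1, and for ITGB3 all but Huh7-IR replicate 2 and Huh7-CR replicate 1.

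**Figure D3:**
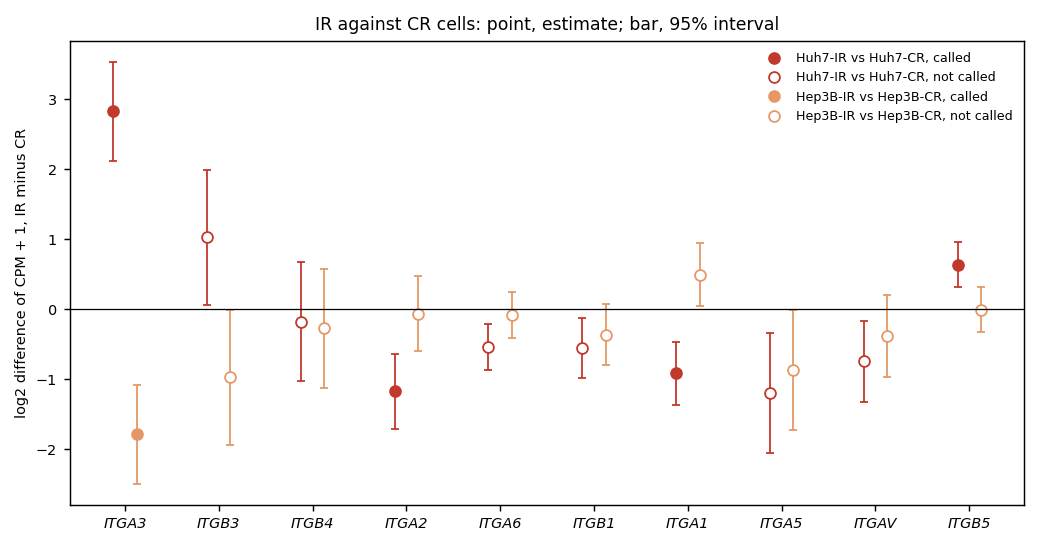
Difference between IR and CR cells for each integrin subunit in Huh7 and in Hep3B (vertical axis, log2 of CPM + 1, IR minus CR), with 95% intervals as bars; filled points were called changed. ITGA3 is at 2.83 in Huh7 and -1.79 in Hep3B, and no other member is called in both lines.

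Between the parental lines, ITGB4 was the member that was near absent in one line. Compared with Hep3B, limma called 4 of 10 members lower in Huh7 parental cells and 0 higher. That share was close to the 42.6% of all genes called in either direction. ITGB4 was at 0.358 ± 0.09 CPM in Huh7 and 14.8 ± 6.32 CPM in Hep3B (SD, n = 2 each), a log2 difference of -3.48 (limma adjusted p = 1.41e-05). ITGA1 differed by -1.16 (adjusted p = 0.000548), ITGB1 by -0.85 (adjusted p = 0.00348) and ITGB5 by -0.59 (adjusted p = 0.00515). The first 3 remained called in all 11 alternatives, whereas ITGB5 did not with edgeR, DESeq2 or TMM factors (-0.51, -0.52 and -0.50), without Huh7 parental replicate 2 (adjusted p = 0.0588) or without Hep3B parental replicate 1 (0.0749). DESeq2 called 6 members, beside 3589 genes higher and 3579 lower in Huh7. These included ITGA2 and ITGAV, both higher in Huh7 (0.65 and 0.66, DESeq2 adjusted p = 0.0411 and 0.0368), and ITGB3, lower (-1.40, 0.0482). The main fit had 2843 genes higher and 3560 lower, against 3236 and 3238 with TMM factors. ITGA3 was at 0.912 ± 0.418 and 1.03 ± 0.377 CPM (SD, n = 2 each), with an interval of the log2 difference from -0.80 to 0.62.

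Levels of different genes were compared per kilobase of merged exon, as CPM per kb, and each subunit was expressed as a percentage of the summed alpha or beta subunits among the 10. ITGA3 made up 0.083% ± 0.031 of the alpha subunits in Huh7 parental and 0.108% ± 0.038 in Hep3B parental cells (SD, n = 2). Its share was 40.8% ± 9.0 in IR and 5.11% ± 0.361 in CR cells of Huh7. In Hep3B it was 10.7% ± 3.57 in IR and 26.2% ± 3.501 in CR cells. In Huh7-IR it stood first of all 10 subunits, at 67.0 ± 6.55 CPM per kb, although its values overlapped those of ITGB1, at 61.6 ± 16.8 CPM per kb, and it came after ITGB1 when the longest transcript was used for length. In Huh7-CR, by contrast, ITGA3 ranked 8 of 10, behind ITGA5.

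The share of ITGAV was lower than in parental cells in the resistant and in the DMSO cells of both lines. ITGAV made up 49.9% ± 5.64 of the alpha subunits in Huh7 parental, 37.3% ± 5.39 with DMSO, 19.1% ± 5.09 in IR and 28.7% ± 1.81 in CR cells. In Hep3B, its share was 38.1% ± 1.13 in parental, 29.8% ± 2.47 with DMSO, 32.7% ± 0.498 in IR and 31.1% ± 3.43 in CR cells. The DMSO cells had the lowest mean by merged exon. By longest transcript the lowest was that of the CR cells, at 44.1% against 44.9% with DMSO. With the longest transcript as length, the ITGAV share in Huh7 parental cells was 66.7%, since the merged exons of ITGAV are 19.3 kb and its longest transcript 7.95 kb. The share of ITGA2 in Huh7-CR was 24.7% ± 0.429, against 16.1% ± 0.639 in parental cells. ITGA5 made up 6.73% ± 2.33 and 5.56% ± 1.08 of the alpha subunits in Huh7 and Hep3B parental cells, and 1.30% ± 0.246 in Hep3B-IR.

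Of the beta subunits, ITGB1 held 63.8% ± 1.22 in Huh7 parental, 64.6% ± 9.35 in IR and 80.6% ± 1.46 in CR cells, and 61.4% to 72.3% on average in the Hep3B groups. The share of ITGB5 was 36.1% ± 1.21 in Huh7 parental and 14.3% ± 1.58 in Huh7-CR cells. ITGB3 reached 10.1% and 2.92% in the Huh7-IR libraries and 0.93% and 1.07% in those of Hep3B-CR, from 0.085% ± 0.018 in Hep3B parental cells. ITGB4 made up 2.00% ± 0.683 in Hep3B parental, 10.6% ± 4.47 in IR and 10.0% ± 0.824 in CR cells. The ratio of summed alpha to summed beta subunits was 1.75 and 1.77 in the Huh7-IR libraries and 1.78 and 1.79 in the Huh7 parental libraries, and in Hep3B it was 0.85 and 0.95 in parental against 1.21 and 1.31 in CR libraries.

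**Figure D4:**
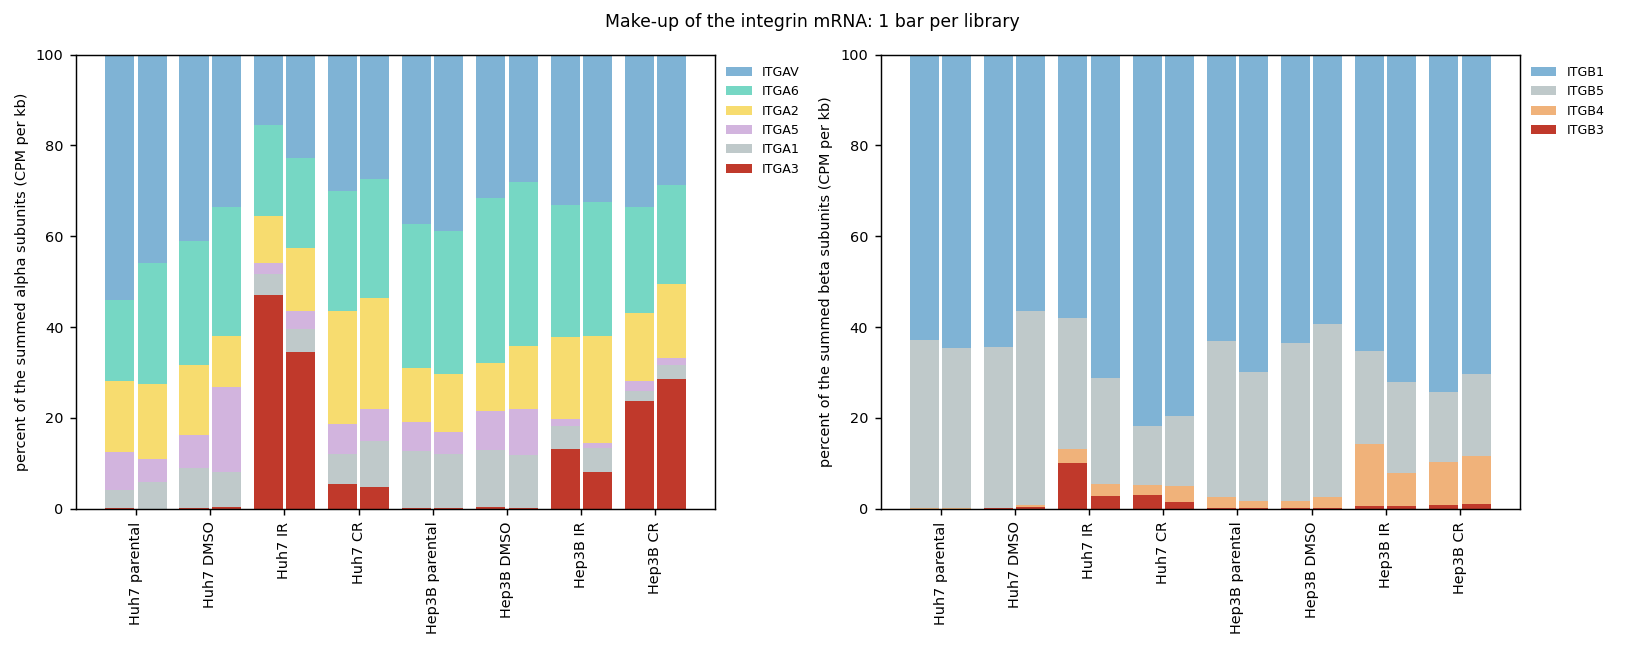
Make-up of the integrin mRNA in each of the 16 libraries (1 bar each), as percent of the summed alpha subunits (left) and beta subunits (right), from CPM per kb of merged exon. ITGA3 is nearly invisible in parental and DMSO libraries and covers 34.4% and 47.2% of the alpha bar in Huh7-IR.

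The gene most like ITGA3 across the 16 libraries was sought by Pearson's r of log2(CPM + 1) among 11592 genes, as a description, since the libraries share their lines and groups. The 5 highest were NIBAN1 (0.99), KCNK6 (0.98), SLC35F6 (0.98), TACC2 (0.98) and COL1A1 (0.97), the alpha chain of type I collagen. NIBAN1 had group means of 183, 52.5, 32.4 and 116 CPM in the resistant groups, and at most 0.531 CPM in the others. The 3 lowest were FAM83D (-0.98), MAD2L1 (-0.98), a spindle checkpoint protein, and CCNF (-0.97), the cyclin F gene. MAD2L1 was at 145 and 121 CPM on average in Huh7 and Hep3B parental cells, and at 22.1 CPM in Huh7-IR and 27.2 CPM in Hep3B-CR. Among the members, r with ITGA3 was 0.92 for ITGB3, 0.75 for ITGB4, 0.74 for ITGA6, 0.70 for ITGA2 and 0.67 for ITGB1, and -0.40 for ITGA5, -0.32 for ITGB5 and -0.13 for ITGA1, with 0.29 for ITGAV.

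Of the 16 other integrin subunits, 11 passed the filter, and ITGA8, ITGAD, ITGAX, ITGB2 and ITGB7 did not. For Huh7, 4 were called higher and 1 lower in IR (31.1% and 17.8% of all genes), and 6 and 2 in CR (20.9% and 13.6%). For Hep3B, the counts were 4 and 0 in IR (15.7% and 11.4%), and 6 and 1 in CR (20.0% and 12.3%). Their median log2 differences were 0.52, 0.72, 0.01 and 0.66. With edgeR, whose values depend less on the added 1 CPM, the medians were 1.16, 1.48, 1.41 and 2.22.

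ITGA4, an alpha subunit that binds fibronectin and VCAM1 and is typical of leukocytes, was the other large difference, in Huh7 cells. ITGA4 had 1 and 0 reads in the Huh7 parental libraries and 1 and 2 reads with DMSO, against 37.4 and 34.9 CPM in IR (2255 and 1628 reads) and 44.4 and 35.2 CPM in CR libraries. In Hep3B cells it measured 0.58 and 0.38 CPM in parental, 1.90 and 0.78 CPM in IR, and 3.85 and 0.97 CPM in CR libraries. Of its beta partners, ITGB1 was present throughout, and ITGB7 did not pass the filter. On the log2 scale of CPM + 1, ITGA4 rose by 5.20 and 5.33 (SE 0.34) in Huh7-IR and Huh7-CR (limma adjusted p = 2.39e-07 and 2.71e-07), a size set by the added 1 CPM given so few parental reads. In Hep3B the values were 0.62 (adjusted p = 0.187) and 1.07 (0.0252), the latter lost when any 1 of Hep3B parental replicate 1 (0.0653), Hep3B parental replicate 2 (0.13) or Hep3B-CR replicate 1 (0.281) was left out.

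Of the 11, only collagen-binding ITGA10 was called higher in all 4 resistant groups, by 2.68, 1.117, 1.68 and 1.86 (limma adjusted p at most 0.00603). It was at 0.49 and 0.43 CPM in Huh7 parental and 6.03 and 11.5 CPM in Huh7-IR libraries. The ITGA10 call in Huh7-CR was lost with an added constant of 4, at a difference of 0.47, below the size threshold. The share of all genes called higher in all 4 groups was not counted. ITGB6, a further partner of ITGAV, had 0.92 (adjusted p = 0.103) and 1.83 in Huh7 and rose by 2.94 and 3.10 in Hep3B. Its Huh7-CR call was lost without Huh7 parental replicate 2 (0.0615) or Huh7-CR replicate 2 (0.0567), and it was called in Huh7-IR without Huh7-IR replicate 1 (0.0189). ITGB8, also a partner of ITGAV, rose by 1.73 and 1.28 in the Huh7 groups and had 0.01 and 0.58 in the Hep3B groups (adjusted p = 0.995 and 0.14), the latter at a mean of 0.622 CPM and called by edgeR and DESeq2 (0.00242 and 9.19e-05). ITGA11 had 0 reads in all parental and DMSO libraries, which allows up to 3 in each, and 70 and 221 reads in the Huh7-CR libraries. ITGAL, the alpha subunit of the leukocyte integrin LFA-1, fell by 2.98 and 2.93 in Huh7-IR and Huh7-CR, from 6.27 and 8.61 CPM in parental cells to at most 0.21 CPM.

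The lists of integrin ligands, membrane partners, cytoplasmic adaptors and inactivators were compiled with earlier results of these data known. Together with the other subunits, the 5 lists held 105 genes, of which 94 passed the filter. Of 28 ligands tested, 13 rose and 7 fell in IR (31.1% and 17.8% of all genes), and 15 and 8 in CR cells of Huh7 (20.9% and 13.6%). In Hep3B, 13 and 3 did so in IR (15.7% and 11.4%), and 12 and 6 in CR cells (20.0% and 12.3%). The median log2 difference of the ligands was 0.69, 0.78, 0.58 and 0.64, and all genes had the medians given above. In all 4 groups 7 ligands rose and 3 fell. The share of all genes that moved alike in all 4 groups was not counted, and nothing is read from these counts.

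Those that moved alike included matrix proteins and fibrinogen chains, and the laminin chains among them did not all move one way. COL1A1 rose by 5.04, 4.21, 4.69 and 5.69 (limma adjusted p at most 9.1e-05). LAMB3, a chain of laminin-332, rose by 1.74, 2.21, 2.39 and 3.25, and LAMA4 by 2.67, 1.86, 2.44 and 2.23, although against the DMSO libraries the LAMA4 differences in Huh7 were 0.78 (adjusted p = 0.141) and -0.02. MFGE8, a secreted ligand of ITGAV integrins, rose by 3.87, 1.18, 2.45 and 2.08. Against the DMSO libraries its Huh7-CR difference was 0.22 (limma adjusted p = 0.686). The MFGE8 call in Huh7-CR was also lost with an added constant of 4, without the filter and in the fit of the line alone (0.053, 0.0655 and 0.119). Without Huh7 parental replicate 2 or Huh7-CR replicate 2 it was lost too, at differences of 0.92 and 0.51. LAMC1, the gamma chain common to many laminins, fell in all groups, with -1.01, -0.64, -1.31 and -1.48, from means of 446 to 221 and 284 CPM in Huh7 and of 937 to 378 and 335 CPM in Hep3B. Its Huh7-CR call was lost without Huh7 parental replicate 1 or Huh7-CR replicate 1 (adjusted p = 0.109 and 0.102) and in the fit of the line alone (0.0623), and it was named after its values had been seen. The fibrinogen chains FGA and FGG, liver secretory products, fell in all groups, with -5.09, -3.17, -1.96 and -3.78 for FGA and -4.799, -2.52, -2.63 and -1.83 for FGG. The FGA call in Hep3B-IR was lost without any 1 of the 4 libraries (adjusted p = 0.1 to 0.198), as was the FGG call in Hep3B-CR (0.0626 to 0.151), and the FGG call in Huh7-CR was lost without Huh7-CR replicate 1 (0.0592).

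LAMA3, a chain of the laminin-332 that ITGA3 and ITGA6 bind, was called in Huh7 cells. LAMA3 rose by 5.64 and 5.69 in Huh7 (limma adjusted p = 2.02e-07 and 2.67e-07) and had -0.05 and -0.83 in Hep3B (adjusted p = 0.956 and 0.0861). It was at 1.09 and 0.76 CPM in Huh7 parental, 68.0 and 131 CPM in Huh7-IR, and 82.8 and 117 CPM in Huh7-CR libraries, whereas the Hep3B parental libraries already had 77.1 and 42.5 CPM. Against the Hep3B DMSO libraries, at 19.2 and 22.5 CPM, the Hep3B differences were 1.37 and 0.59. In Hep3B-CR it was called lower without Hep3B parental replicate 2 or Hep3B-CR replicate 2 (adjusted p = 0.0459 and 0.0497). LAMA3 was named after its values had been seen, and the difference between the lines was not tested.

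Of 13 membrane partners, 10 rose and 1 fell in IR (31.1% and 17.8% of all genes), and 6 and 1 in CR cells of Huh7 (20.9% and 13.6%). In Hep3B the counts were 3 and 2 in IR (15.7% and 11.4%), and 7 and 1 in CR cells (20.0% and 12.3%), and the medians were 1.15, 0.79, -0.0005 and 0.70. PLAUR, the urokinase receptor that associates with integrins, rose by 2.31, 2.66, 1.56 and 2.70 (limma adjusted p at most 0.000474). CAV1, the coat protein of caveolae, rose by 1.55, 1.70, 2.18 and 2.32 (adjusted p at most 0.00158). CD151, the tetraspanin that binds ITGA3, rose by 1.30 in Huh7-IR (adjusted p = 0.00124) and had 0.60 (0.0903) in the CR cells of that line and 0.19 (0.643) in Hep3B-IR. In Hep3B-CR it had 0.78 (0.0346), a call lost without any 1 of the 4 libraries (differences of 0.63 to 0.93). That call was also lost with edgeR (adjusted p = 0.0608), with TMM factors (limma adjusted p = 0.0574) and without the filter (0.0713). Against the DMSO libraries the CD151 difference in Hep3B-CR was 0.49 (0.163). CD151 was named for its known partner after its values had been seen.

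Of 38 cytoplasmic adaptors and signaling genes, 20 rose and 2 fell in IR (31.1% and 17.8% of all genes), and 22 and 1 in CR cells of Huh7 (20.9% and 13.6%). In Hep3B the counts were 14 and 2 in IR (15.7% and 11.4%), and 19 and 1 in CR cells (20.0% and 12.3%), and the medians were 0.94, 0.96, 0.51 and 0.66. In all 4 groups 7 rose and 0 fell, and here too the share of all genes that did so was not counted. FERMT1, a kindlin that activates integrins, rose by 4.85, 4.58, 1.75 and 3.31 (limma adjusted p at most 0.000714), from 1.76 and 1.43 CPM in Huh7 parental to 83.7 and 65.3 CPM in Huh7-IR libraries. FERMT2, its relative, rose by 1.10, 1.64, 1.118 and 1.08, the kinase gene SRC by 1.92, 1.50, 1.37 and 1.35, and ACTN1, the actin cross-linker alpha-actinin, by 1.45, 2.03, 0.97 and 0.94. FLNA, filamin A, had 1.18, 1.22, 0.93 and 1.37, but its call was lost in both Huh7 groups without Huh7 parental replicate 2 (adjusted p = 0.0785 and 0.0903) and in Hep3B-IR without Hep3B parental replicate 2 or Hep3B-IR replicate 1 (0.241 and 0.346). DST, the plakin of hemidesmosomes, had 1.22, 1.07, 1.35 and 0.68. The last call was lost with edgeR, DESeq2 and TMM factors (differences of 0.52, 0.51 and 0.56). It was lost as well without the filter and in the fit of the line alone (limma adjusted p = 0.0716 and 0.0701). Without Hep3B parental replicate 2, Hep3B-CR replicate 1 or Hep3B-CR replicate 2 the differences were 0.30, 0.579 and 0.77, again not called.

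The focal adhesion kinase gene PTK2 went against this direction in Huh7 cells, where it fell by 0.82 and 0.61 in IR and CR, the latter reaching -0.56, below the size threshold, without Huh7-CR replicate 2. It had -0.04 and -0.17 in Hep3B-IR and Hep3B-CR (limma adjusted p = 0.802 and 0.207). Also called lower were KANK1 in Huh7-IR, Hep3B-IR and Hep3B-CR (-0.59, -0.62 and -0.79) and PARVB in Hep3B-IR (-1.21). In Huh7-CR, KANK1 had -0.32 and was not called, and PARVB rose in both Huh7 groups (2.06 and 1.41). Whether the calls of KANK1 and PARVB held in the alternatives was not examined. The 4 inactivators hold integrins in the resting state. Of them, 3, 1, 1 and 2 rose (31.1%, 20.9%, 15.7% and 20.0% of all genes). In every group 0 fell (17.8%, 13.6%, 11.4% and 12.3% of all genes), and with 4 genes nothing is read from these counts. DAB2 rose by 1.78 and 0.68 in Hep3B-IR and Hep3B-CR. The latter call was lost with edgeR, DESeq2 and TMM factors (differences of 0.56, 0.54 and 0.56). Without Hep3B parental replicate 2 or Hep3B-CR replicate 2 it was also lost, at 0.44 and 0.56. In the Huh7 groups DAB2 had 0.40 and 0.43 (limma adjusted p = 0.0648 and 0.0625), and 0.96 and 1.00 against the DMSO libraries, both called. SHARPIN had 0.90, -0.12, 0.40 and 1.20, and its Huh7-IR call was lost without Huh7 parental replicate 2 (0.16), Huh7-IR replicate 1 (0.0562) or Huh7-IR replicate 2 (0.0635), and its Hep3B-CR call without Hep3B parental replicate 2 (0.0707). PTK2, KANK1 and PARVB were named after their values had been seen.

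**Figure D5:**
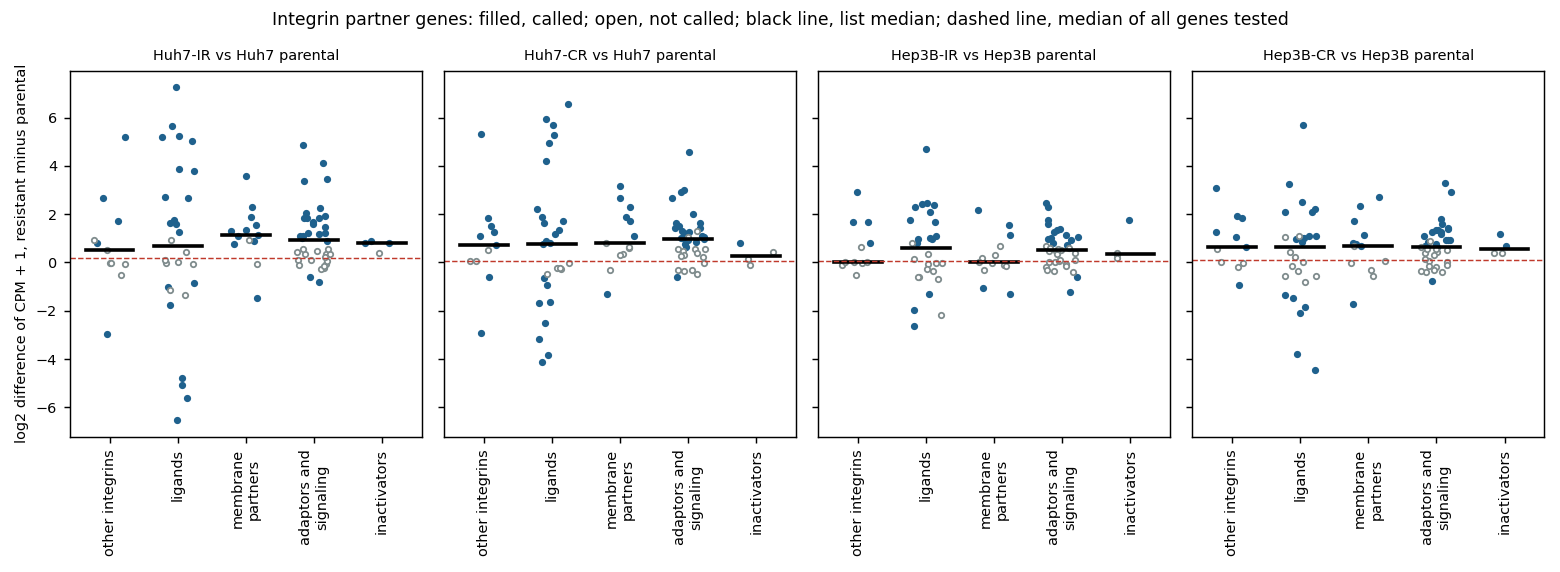
Difference of integrin partner genes between resistant and parental cells (vertical axis, log2 of CPM + 1) in the 4 resistant groups, by list (horizontal axis); filled points were called changed, the black line is the median of a list and the dashed line that of all genes tested. The adaptor list has the median farthest above the dashed line in Huh7-CR (0.96 against 0.07), and in Hep3B-IR the membrane partners have a median of -0.0005 and run from -1.31 to 2.18.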

How the data were processed

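RNA-seq libraries were prepared by poly(A) enrichment, per the labels, and the authors deposited a single table of CPM values, that is, reads assigned to each of 26258 Entrez genes scaled to the library total. The submitters' processing notes name STAR and the hg19 genome. By the methods of the study, uniquely mapped reads were counted over RefSeq exons with QuasR. Strand use in counting is not given in the sources used here, and the study's methods and the labels name different library kits and sequencers. Reads per gene were recovered from the CPM steps (100% of values whole within 0.05 reads). Symbols matched 26111 genes. CPM were transformed to log2(CPM + 1), 15019 genes reaching 1 CPM in 2 or more libraries were kept, and 1 limma (3.58.1) trend fit over all 8 groups gave each difference, with Benjamini-Hochberg adjusted p-values. The fit was tested on simulated data. edgeR (4.0.16) and DESeq2 (1.42.0) on recovered reads, TMM factors, pseudocounts of 0.25 and 4, no filter, the line alone, the replicate block, the DMSO reference and leaving out single libraries served as alternatives. Gene lengths came from GRCh37 exons and promoter sequences from RefSeq, with entries for 7 of the 10 members. Members and lists were chosen with earlier results of these data known. Named partner genes were those called alike in all 4 resistant groups, up to 6 per list by mean size, filled to 2 per list. Any integrin subunit that passed the filter could also be named. LAMA3, LAMC1, CD151, PTK2, KANK1 and PARVB were added after their values had been seen. Shares and intervals cover counting or replicate error only.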

Additional observations from a re-analysis of the deposited data

Results flagged for a closer look

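ITGA1 differed from parental cells in opposite directions in the lines, by log2 differences of 0.57 in Huh7-IR and 1.49 in Huh7-CR against -0.70 in Hep3B-IR and -1.19 in Hep3B-CR. Every resistant Huh7 library lay above, and every resistant Hep3B library below, the parental libraries of its line, and this difference between the lines was not tested. With the DMSO libraries as reference the Huh7-IR value was 0.07, its libraries overlapped those of the DMSO cells, and single libraries left out gave 0.36 to 0.78.

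The difference between IR and CR cells itself differed between the lines by the limma test of Huh7 minus Hep3B for 5 members, in a comparison added after the order of ITGA3 had been seen, so that the ITGA3 value is a description. The values were 4.62 for ITGA3, 2.00 for ITGB3, 0.65 for ITGB5, -1.41 for ITGA1 and -1.11 for ITGA2. ITGA1 remained called in all 15 alternatives, whereas the calls of ITGB3, ITGA2 and ITGB5 were each lost in several of them. With 2 libraries per group, a single library far from the rest of its group could not be tested for.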

How the results depend on the processing

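The sign of ITGA3 and of ITGB3 and ITGB4 in the resistant groups was the same in every alternative. Genes called between DMSO and parental cells were the least stable: 726 in Huh7 became 1833 with DESeq2, 382 without the filter, 29 with the line alone, 2171 by unadjusted p with the size threshold kept and 148 (without Huh7 DMSO replicate 2) to 3564 (without Huh7 DMSO replicate 1) with single libraries left out, with 2, 2 and 0 to 4 members called by DESeq2, by unadjusted p and with libraries left out; 237 in Hep3B became 77 with edgeR, 544 with DESeq2, 516 with the line alone, 1210 by unadjusted p (1 member) and 46 to 122. Between IR and CR, 2051 genes in Huh7 became 194 with the line alone (1 member), 3148 by unadjusted p (7 members) and 479 to 2878 (1 to 9 members) with libraries left out, with 7 members by DESeq2; 1764 in Hep3B became 2671 by unadjusted p (3 members), with 2 members for the line alone, and 665 to 1151 (0 to 1 members). The difference between the lines counted 3828 genes, and 2071 to 4590 with libraries left out (2 to 4 members), 3 members with edgeR and 2 without the filter. The ITGA3 share of alpha subunits in Huh7-CR was 5.76% by longest transcript. An arm left with 1 library was assumed to vary like the other groups.

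Values that changed sign were, against the DMSO libraries, LAMA4 in Huh7-CR (-0.020, from 1.86), SHARPIN, ITGB8 and CD151 in Hep3B-IR (-0.12, -0.10 and -0.10) and LAMA3 in Hep3B-IR and Hep3B-CR (1.37 and 0.59, from -0.05 and -0.83). Over all alternatives, the difference from parental cells ran from -0.08 to 0.27 for ITGB5 in Huh7-IR and from -0.28 to 0.65 for ITGAV in Huh7-CR. In Huh7 DMSO, ITGA6 had -0.0072 with edgeR and -0.018 with DESeq2. Between Hep3B-IR and Hep3B-CR, ITGA2 had 0.0019 and 0.0054 with edgeR and DESeq2, and ITGB5 0.046, 0.049 and 0.045 with edgeR, DESeq2 and TMM factors. In the difference between the lines, ITGB4 had -0.14, -0.17 and -0.055 with edgeR, DESeq2 and TMM factors. With single libraries left out, values crossing 0 against parental cells were -0.38 to 0.13 for SHARPIN in Huh7-CR. In Hep3B-IR they were -0.00078 to 0.38 for CD151, -0.035 to 0.049 for ITGB8 and -0.47 to 0.38 for LAMA3. Among the members they were -0.19 to 0.51 for ITGA2 and -0.87 to 0.02 for ITGA5 in Huh7-IR. For ITGAV in Huh7-CR they were -0.28 to 0.14. In Huh7 DMSO these were -0.13 to 0.24 for ITGA6 and -0.15 to 0.15 for ITGB1, in Hep3B DMSO -0.16 to 0.38 for ITGB3, -0.69 to 0.15 for ITGB4 and -0.33 to 0.13 for ITGB5, and between the parental lines -0.31 to 0.14 for ITGA3 and -0.023 to 0.87 for ITGA5. Between IR and CR they were -0.37 to 0.0040 for ITGB4 in Huh7, and in Hep3B -0.21 to 0.081 for ITGA2, -0.23 to 0.05 for ITGA6, -0.72 to 0.17 for ITGB4 and -0.033 to 0.014 for ITGB5. In the difference between the lines they were -0.77 to 0.11 for ITGA5, -0.76 to 0.040 for ITGAV, -0.47 to 0.095 for ITGB1 and -0.35 to 0.54 for ITGB4. The cause was not tested.

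Replicate numbers are shared by the groups, but the labels tie them to no batch, and correlations of same-numbered deviations ran from -0.22 to 0.44. With the replicate block, 846 genes were called in Huh7 DMSO, 2076 between Huh7-IR and Huh7-CR and 3901 in the difference between the lines. No call of a named gene changed, KANK1 and PARVB not being examined. Crossed numbers, tried after seeing the data where the correlation was below -0.1, gave 7326, 821 and 239 genes for Huh7-IR, Huh7 DMSO and Hep3B DMSO. With 2 libraries per group, small differences could not be resolved.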
